A study of Mus musculus with 7 samples.

Results

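The serum amyloid A genes Saa1, Saa2, Saa3 and Saa4, the orosomucoid genes Orm1 and Orm2 and the pentraxin genes Crp and Apcs were followed across mouse embryonic fibroblasts (MEF), induced hepatic stem cells (iHepSC) and primary hepatocytes (pHep). Membership was by gene name alone: every probe set that the array annotation gave to 1 of these 8 genes was taken, which made 10 probe sets, with Saa1 and Saa4 read by a pair each. They are 8 of the 18193 genes that could be read. The study had converted MEF into iHepSC with Oct4 and Hnf4a and asked how near the converted cells had come to liver cells.

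There were 4 MEF arrays, 2 iHepSC arrays and 1 pHep array, with the strain labelled C57BL/6 throughout and given by the study's methods as C57BL/6J for the embryos and the hepatocyte donors. MEF came from embryos and were grown in DMEM with serum. iHepSC were MEF that had received Oct4 and Hnf4a on lentiviral vectors, driven by the SFFV promoter, and were kept in HEP medium, which holds dexamethasone, HGF, EGF and nicotinamide. The arrays were of passage 3 (replicate 1, iHepSC-P3) and passage 20 (replicate 2, iHepSC-P20), and the labels do not name the clone. pHep were isolated from 6-week-old C57BL/6J mice by collagenase perfusion, and the labels do not say how many mice gave the RNA. The sources differ on their medium: the labels say HEP medium, while the methods describe a few hours on collagen in Williams' medium E with antibiotics and glutamine before RNA was taken, with no dexamethasone named. By either account MEF had another medium than the other groups, so medium and cell identity cannot be told apart. Nothing says that the MEF replicates were separate cultures, and p-values then measure only the spread between these arrays, which may be technical. In whole-culture RNA, fewer cells of a type and less RNA per cell cannot be told apart.

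The acute phase response is the liver's release of plasma proteins after infection or injury, driven mainly by interleukin-6, interleukin-1 and tumour necrosis factor acting on hepatocytes. Interleukin-6 signals through STAT3 and interleukin-1 through NF-kB, and C/EBP factors act at many of the target promoters. Serum amyloid A proteins are small apolipoproteins of high density lipoprotein. Saa1 and Saa2 are the strongly inducible hepatic forms, Saa3 is the form known mainly from macrophages, adipocytes and other cells outside the liver, and Saa4 is the constitutive hepatic form. Orosomucoids are plasma lipocalins that bind drugs and other ligands. Crp and Apcs (serum amyloid P component) are short pentraxins that bind phosphocholine, chromatin and microbial surfaces, and in the mouse Apcs is the more inducible of the pair.

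The genes lie in 3 clusters, with Saa1 to Saa4 on chromosome 7, Orm1 and Orm2 on chromosome 4 on either side of Orm3, and Crp and Apcs on chromosome 1. The 250 bases before a transcription start are shown for 4 members. Saa1 and Saa2 are the neighbouring inducible forms, and Saa3 and Crp had unlike patterns across the cells. Which transcripts a probe set binds cannot be read from these windows. The sequences are RefSeq's for build GRCm38.p6, written 5′ to 3′ on the strand of the gene. The table gives 1 start for each of these genes without naming its transcript, and the RefSeq gene spans reach further upstream for Saa3 and Saa1, so that the Saa3 window lies inside its gene span and most of the Saa1 window does. Capitals mark matches to the C/EBP letters TTNNGNAA or the NF-kB letters GGNNTTTCC on either strand.
Saa1, chr7:46742981-46743230, minus strand: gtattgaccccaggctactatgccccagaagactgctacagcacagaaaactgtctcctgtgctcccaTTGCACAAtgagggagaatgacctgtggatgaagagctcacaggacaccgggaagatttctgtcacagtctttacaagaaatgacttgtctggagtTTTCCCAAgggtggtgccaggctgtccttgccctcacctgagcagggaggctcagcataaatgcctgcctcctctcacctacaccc
Saa2, chr7:46751583-46751832, plus strand: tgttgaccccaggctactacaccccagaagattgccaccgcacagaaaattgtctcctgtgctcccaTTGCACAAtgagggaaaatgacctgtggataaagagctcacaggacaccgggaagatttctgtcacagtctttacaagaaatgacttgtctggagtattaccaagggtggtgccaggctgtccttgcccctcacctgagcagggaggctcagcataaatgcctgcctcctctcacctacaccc
Saa3, chr7:46715677-46715926, minus strand: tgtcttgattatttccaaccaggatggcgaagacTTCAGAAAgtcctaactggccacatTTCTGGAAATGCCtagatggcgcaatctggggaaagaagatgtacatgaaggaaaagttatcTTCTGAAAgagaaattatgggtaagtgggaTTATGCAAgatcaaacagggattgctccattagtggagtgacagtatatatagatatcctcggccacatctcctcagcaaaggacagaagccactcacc
Crp, chr1:172697806-172698055, plus strand: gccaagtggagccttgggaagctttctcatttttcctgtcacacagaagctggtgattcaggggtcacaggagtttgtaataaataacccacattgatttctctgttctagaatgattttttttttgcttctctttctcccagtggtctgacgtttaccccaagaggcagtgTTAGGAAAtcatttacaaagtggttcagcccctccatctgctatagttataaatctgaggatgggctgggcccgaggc

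The Saa1 and Saa2 windows were alike in 238 of 251 aligned positions (94.8%), whereas Saa1 and Saa3 were alike in 48.5%, and Saa3 and Crp in 45.9%. The Saa3 window held 4 C/EBP matches and 1 NF-kB match, which overlaps a C/EBP match. Saa1 held 2 C/EBP matches, Saa2 held 1 and Crp held 1. Of the members not printed, Saa4 and Orm2 held 2 C/EBP matches each and Apcs held none, and no window was at hand for Orm1. A C/EBP match occurs in 36.8% of the 32851 promoter windows of that length, and an NF-kB match in 4.9%. The STAT letters TTCNNNGAA, found in 7.0% of the windows, matched once in Apcs and in no other member, and the HNF1 letters GTTAAT, found in 6.4%, matched in none of the 7 windows. These are matches of letters only.

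All values below are log2 expression levels made by Robust Multiarray Analysis (RMA). The medians of the 7 arrays lay between 6.28 and 6.33. MEF replicates 2 to 4 correlated with each other at 0.997, and MEF replicate 1 correlated with them at 0.960 to 0.961. The 2 iHepSC arrays correlated at 0.996. Hepatocyte markers were checked against the labels: of 9 such genes, 6 were higher in iHepSC and 8 in pHep than in MEF by limma (adjusted p under 0.05). Over all genes, 18.2% and 14.8% were called higher. Not every marker rose in iHepSC: Tat averaged 6.34 in MEF and 6.29 in iHepSC, and was 11.30 in pHep. Albumin (Alb) was 5.59 ± 0.23 (SD, n = 4) in MEF, 13.74 and 14.39 in iHepSC and 15.13 in pHep. All 9 fibroblast markers were lower in iHepSC than in MEF, and 8 were lower in pHep (13.4% and 15.5% of all genes). Their mean level ran from 11.72 to 12.68 in MEF and was 5.85 and 5.89 in iHepSC, but 8.06 in pHep.

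The 8 genes fell into distinct patterns. Saa3 was highest in iHepSC, above pHep. Saa1 and Orm1 rose in iHepSC and stood higher still in pHep. Orm2, Crp, Apcs and, at its own probe set, Saa2 were higher in pHep than in both other groups, and their iHepSC values did not pass the test against MEF. Saa4 differed with the probe set read. Against MEF, 3 of the 8 genes rose in iHepSC (Saa1, Saa3 and Orm1), where 18.2% of all genes were called higher. None fell (0 at an unadjusted p under 0.05 and 0 by the methods' t-test as well), where 13.4% of all genes were called lower. In pHep, 7 of the 8 were higher than in MEF against 14.8% of all genes, and none was lower (0 at an unadjusted p under 0.05) against 15.5%. The median log2 difference over the members was 0.64 for iHepSC and 5.79 for pHep, beside 0.01 and -0.13 over all genes. Both comparisons use the same MEF arrays. Between iHepSC and pHep, 1 member was higher in iHepSC (9.26% of all genes) and 6 were lower (7.89%), with a median of -3.79 beside 0.15 over all genes. The pHep group is 1 array, so its tests assume that it varies as the MEF and iHepSC arrays do.

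**Figure D1:**
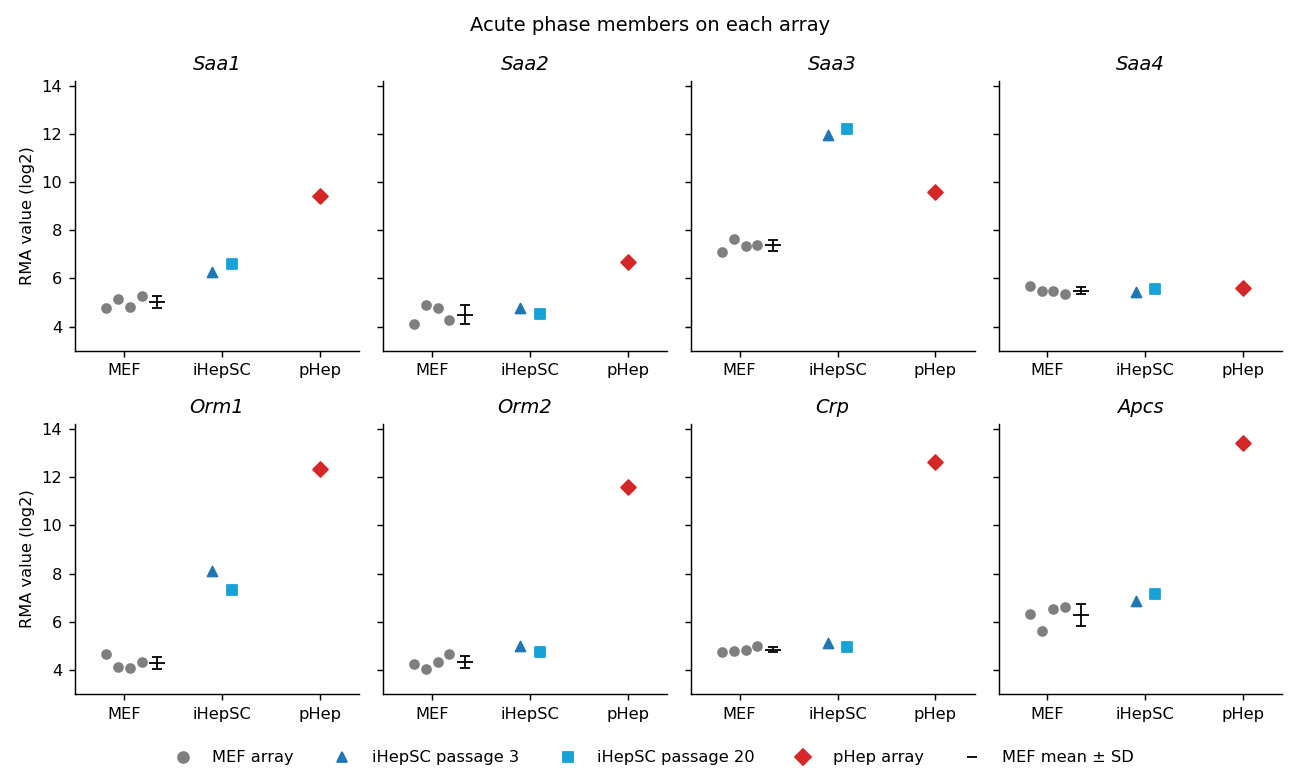
RMA values (log2) of the 8 genes on each array, by group on the x axis; circles are MEF arrays, the triangle is iHepSC-P3, the square iHepSC-P20 and the diamond pHep, and the bar is the MEF mean ± SD. Saa3 reaches 11.94 and 12.22 in iHepSC and 9.59 in pHep, while Orm2, Crp and Apcs are high in pHep alone.

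Saa3, the amyloid form known mainly from cells outside the liver, was read at 7.12, 7.64, 7.36 and 7.40 in MEF, 11.94 in iHepSC-P3, 12.22 in iHepSC-P20 and 9.59 in pHep. The iHepSC arrays stood far above every MEF array and above the pHep array, and no groups overlapped. The rise over MEF was 4.70 ± 0.17 (SE; 26.0-fold; limma adjusted p = 8.95e-06). pHep exceeded MEF by 2.21 ± 0.22 (4.62-fold; limma adjusted p = 0.000858). Saa3 was the 1 member with more in iHepSC than in pHep, by 2.49 ± 0.24 (5.63-fold; limma adjusted p = 0.00102). Its order was therefore MEF, pHep, iHepSC, with each neighbour past the test.

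Saa1, a hepatic inducible form, was read at 4.78, 5.15, 4.81 and 5.29 in MEF, 6.27 in iHepSC-P3, 6.62 in iHepSC-P20 and 9.41 in pHep. Both iHepSC arrays lay above the MEF range and well under pHep. The difference from MEF was 1.44 ± 0.20 in iHepSC (2.71-fold; limma adjusted p = 0.00236) and 4.41 ± 0.25 in pHep (limma adjusted p = 8.28e-05), and iHepSC differed from pHep by -2.97 ± 0.28 (limma adjusted p = 0.000875). Its order was MEF, iHepSC, pHep, with each step past the test. The probe set read here is annotated to Saa1, but the transcript accession beside it is that of Saa2 in RefSeq, which lists the 2 names as synonyms of each other, so signal of Saa1 and Saa2 cannot be told apart at it.

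The other Saa1 probe set, whose accession is that of Saa1, gave 3.39, 4.04, 3.76 and 3.98 in MEF, 4.79 in iHepSC-P3, 6.19 in iHepSC-P20 and 9.57 in pHep. The groups were again in the same order and did not overlap, and the passages lay further apart than at the first probe set. Adjusted over all 45037 probe sets, iHepSC exceeded MEF by 1.70 ± 0.40 (limma adjusted p = 0.0283) and pHep exceeded MEF by 5.77 ± 0.51 (limma adjusted p = 0.00065).

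Saa2, the neighbouring inducible form, was read at 4.11, 4.88, 4.76 and 4.26 in MEF, 4.78 and 4.51 in iHepSC and 6.69 in pHep. The iHepSC values lay inside the MEF range. The difference between iHepSC and MEF was 0.14 ± 0.25 (limma adjusted p = 0.718). pHep was higher than MEF by 2.19 ± 0.33 (4.56-fold; limma adjusted p = 0.00437). iHepSC differed from pHep by -2.05 ± 0.36 (limma adjusted p = 0.0119), which without iHepSC-P20 was -1.91 (adjusted p = 0.0695). Its probe set also carries the suffix of sets that can bind related transcripts. The set read for Saa1 is listed with the same Saa2 transcript, and there iHepSC exceeded MEF by 1.44 (limma adjusted p = 0.00236). Whether Saa2 rose in iHepSC therefore cannot be settled from these sets.

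Saa4, the constitutive hepatic form, gave different readings at its 2 probe sets. At the set with the higher mean, MEF were at 5.68, 5.48, 5.46 and 5.37, iHepSC at 5.43 and 5.57 and pHep at 5.62, so that iHepSC and pHep both lay within the MEF range. The differences from MEF were 0.00 ± 0.12 in iHepSC (limma adjusted p = 1.0) and 0.12 ± 0.15 in pHep (limma adjusted p = 0.59). At the other set, MEF were at 5.30, 5.09, 5.07 and 4.82, iHepSC at 5.25 and 5.39 and pHep at 7.58. There pHep stood alone, 2.51 ± 0.19 above MEF (limma adjusted p = 0.000338), and iHepSC differed from MEF by 0.25 ± 0.15 (limma adjusted p = 0.292). The mean over both sets put pHep 1.31 above MEF (limma adjusted p = 0.00197), so the count of 7 members higher in pHep is 8 when probe sets are averaged.

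**Figure D2:**
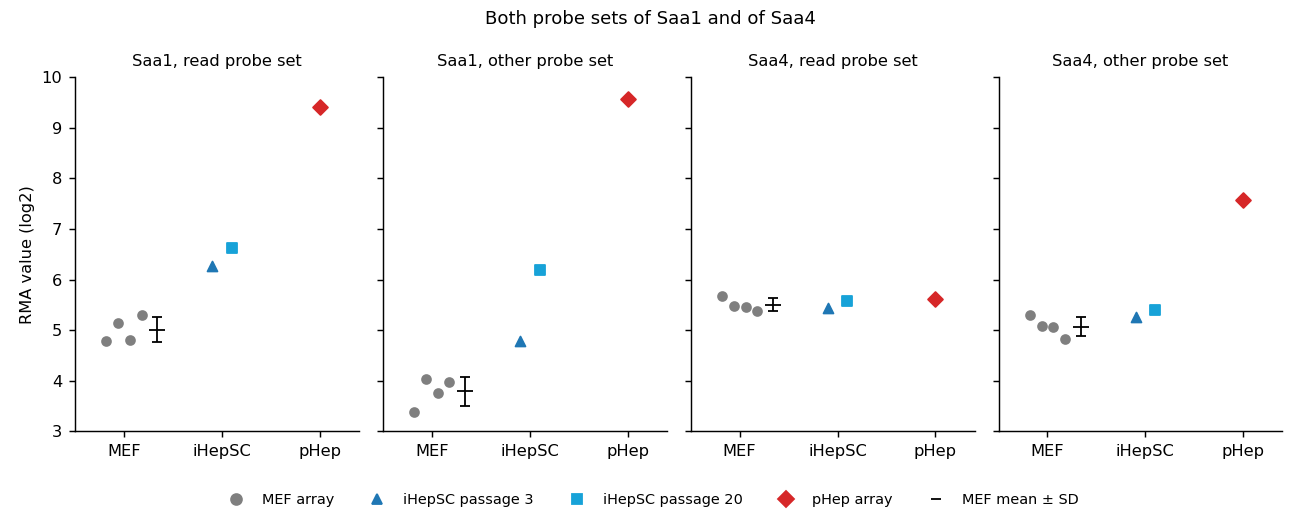
RMA values (log2) of both probe sets of Saa1 and of Saa4 by group, with the symbols for MEF arrays, passages, pHep and the MEF mean ± SD given in the key. The Saa1 sets give the same order of groups, and 1 of the Saa4 sets puts pHep at 7.58 while the other puts it at 5.62.

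Orm1, an acute phase lipocalin, was read at 4.64, 4.13, 4.07 and 4.32 in MEF, 8.11 in iHepSC-P3, 7.30 in iHepSC-P20 and 12.33 in pHep. The 3 groups were widely apart, with iHepSC between MEF and pHep. iHepSC exceeded MEF by 3.41 ± 0.27 (10.7-fold; limma adjusted p = 0.000225), pHep exceeded MEF by 8.04 ± 0.34 (262-fold; limma adjusted p = 2.88e-05), and iHepSC differed from pHep by -4.62 ± 0.38 (limma adjusted p = 0.000514). Orm2, its neighbour in the cluster, was read at 4.26, 4.02, 4.34 and 4.66 in MEF, 4.97 and 4.75 in iHepSC and 11.58 in pHep. Its iHepSC arrays lay just above the highest MEF array, and pHep lay far above both. The difference between iHepSC and MEF was 0.54 ± 0.19 (limma adjusted p = 0.0767). Without MEF replicate 1 it was 0.52 (adjusted p = 0.0466) and without MEF replicate 4 it was 0.65 (adjusted p = 0.0347), both past the test. pHep exceeded MEF by 7.26 ± 0.24 (limma adjusted p = 1.16e-05), and iHepSC differed from pHep by -6.72 ± 0.27 (limma adjusted p = 2.90e-05). Whether the response of Orm1 differed from that of Orm2 was not tested.

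Crp, the classical pentraxin of the acute phase, was read at 4.76, 4.77, 4.84 and 4.98 in MEF, 5.13 and 4.94 in iHepSC and 12.65 in pHep. iHepSC-P20 lay within the MEF range and iHepSC-P3 just above it. The difference between iHepSC and MEF was 0.20 ± 0.11 (limma adjusted p = 0.258). pHep exceeded MEF by 7.81 ± 0.15 (225-fold; limma adjusted p = 4.17e-06), and iHepSC differed from pHep by -7.62 ± 0.16 (limma adjusted p = 4.52e-06).

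Apcs, the serum amyloid P component, was read at 6.30, 5.60, 6.53 and 6.63 in MEF, 6.85 and 7.16 in iHepSC and 13.43 in pHep. Both iHepSC arrays lay above the MEF range by less than the width of that range. The difference between iHepSC and MEF was 0.74 ± 0.30 (limma adjusted p = 0.123). pHep exceeded MEF by 7.16 ± 0.39 (144-fold; limma adjusted p = 6.92e-05), and iHepSC differed from pHep by -6.43 ± 0.43 (limma adjusted p = 0.000221). For Orm2, Crp, Apcs and Saa2, then, pHep was the highest group, and MEF and iHepSC were neighbours that did not pass the test. With each array centred on Gapdh, which raises every iHepSC-to-MEF difference by 0.39, Orm2 (0.93), Crp (0.58) and Apcs (1.12) passed it.

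**Figure D3:**
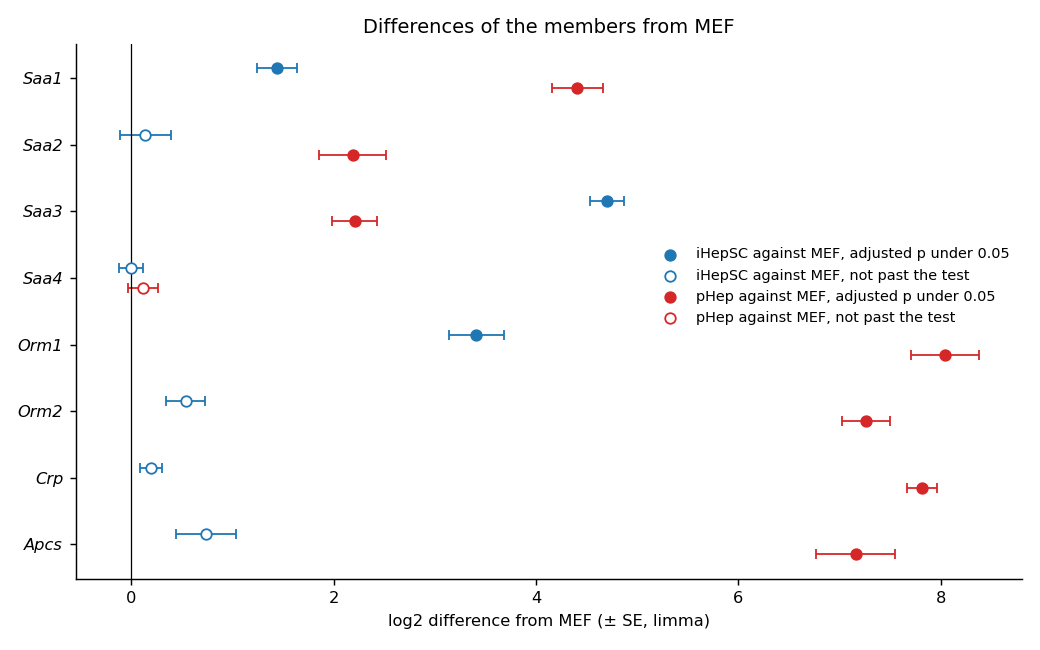
Log2 difference from MEF (x axis, ± SE from limma) for each of the 8 genes, in iHepSC and in pHep; filled points have an adjusted p under 0.05. Saa3 is the gene whose iHepSC difference (4.70) exceeds its pHep difference (2.21).

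The differences between the passages are described here beside the MEF SD. From iHepSC-P3 to iHepSC-P20 the log2 difference was 0.36 for Saa1, -0.28 for Saa2, 0.28 for Saa3, 0.13 for Saa4, -0.81 for Orm1, -0.22 for Orm2, -0.19 for Crp and 0.31 for Apcs. The other Saa1 probe set differed by 1.40, and with both Saa1 sets averaged the difference was 0.88. Saa1 or Orm1 therefore differed most, according to the probe set and scaling (0.59 against -0.58 with Gapdh centring). The median size over all genes was 0.12, and 98 genes (0.539%) differed by at least 1. All 8 members lay above that median, as many genes do by its definition, and Saa4 only just. Saa2, Orm2 and Apcs differed by less than their MEF SD (0.38, 0.26 and 0.46), and Saa4 by about as much (0.13). Saa1, Saa3, Orm1 and Crp differed by more (SD 0.25, 0.22, 0.25 and 0.10). With 1 array per passage no test was possible, and the signs for Orm2 and Crp turned with centring on Gapdh (0.02 and 0.04).

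For each member the genes of most similar profile were sought among the 3556 others with a range of at least 2 across the arrays, by Pearson's r over the 7 arrays. Since the arrays fall into 3 groups, r describes mainly the pattern of group levels, and many genes reach high values. For Saa3 they were Apoa4 (r = 0.998), Ctsh (0.9975) and Rundc3b (0.997). Apoa4, an intestinal and hepatic apolipoprotein, averaged 5.66 in MEF, 12.66 in iHepSC and 8.93 in pHep. Ctsh, the lysosomal protease cathepsin H, averaged 9.07, 13.07 and 10.99. Like Saa3, both were highest in iHepSC and between the other groups in pHep. Saa1 was most like Fads6 (r = 0.9978), Angptl8 and Camsap3, and Saa2 was most like Gdap10 (r = 0.9851), Gstk1 and Cyp2d22. Orm1 was most like Hhex (r = 0.9986), a homeobox factor of liver development that averaged 6.07 in MEF, 9.15 in iHepSC and 13.65 in pHep. Tcf24 and Dusp16 followed. Orm2 was most like 1300017J02Rik (r = 0.9991), 9130016M20Rik and Myo5c, Crp was most like A2ml1 (r = 0.9993), Chil3 and Igfbp1, and Apcs was most like Sgms2 (r = 0.9976), Cbs and Sec14l4. Saa4 had too small a range for this. Among the members themselves, r was 0.99 to 1.00 between Orm2, Crp and Apcs, and 0.02 to 0.60 between Saa3 and the others.

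Among the cytokine ligands of the response, the best-known was lower in iHepSC than in MEF, while others rose or did not pass the test. Of 24 signalling genes measured, 8 were higher and 8 lower in iHepSC than in MEF by limma (18.2% and 13.4% of all genes), with a median difference of -0.06. Without MEF replicate 2, 3 or 4 or iHepSC replicate 2 the rises numbered 4, and without iHepSC replicate 1 they numbered 5. Without either iHepSC array the falls numbered 5. Il6, the main hepatic inducer of the acute phase, was read at 9.93, 9.28, 9.24 and 9.38 in MEF and at 4.10, 4.17 and 4.15 in iHepSC-P3, iHepSC-P20 and pHep. All MEF arrays were thus far above all others. It fell by 5.32 on the log2 scale in iHepSC (limma adjusted p = 1.31e-05), and pHep differed from MEF by -5.30 (limma adjusted p = 5.6e-05). The ligand Il11 also differed in iHepSC, by -3.17 (limma adjusted p = 0.000113). Tnf and Lif were higher in iHepSC than in MEF, by 0.34 (limma adjusted p = 0.0422) and 1.43 (limma adjusted p = 0.034). The ligands Il1a, Il1b, Osm and Clcf1 did not pass the test there.

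The receptors moved in both directions. Il6ra, the receptor chain that binds interleukin-6, was read from 6.50 to 7.14 in MEF, at 7.68 and 8.77 in iHepSC and at 8.80 in pHep. Its rise in iHepSC was 1.52 ± 0.33 (limma adjusted p = 0.0165), and was not past the test without MEF replicate 2, 3 or 4 (adjusted p = 0.0511, 0.0512 and 0.051) or without iHepSC-P20 (0.98, adjusted p = 0.0907). Osmr, the oncostatin M receptor, was read from 11.33 to 12.16 in MEF, at 8.74 and 8.06 in iHepSC and at 11.81 in pHep. Its iHepSC arrays were below every other array, with a difference from MEF of -3.16 ± 0.31 (limma adjusted p = 0.000591). Il6st, the shared signalling chain gp130, differed by -1.69 ± 0.30 (limma adjusted p = 0.00706), and was not past the test without iHepSC-P3 (adjusted p = 0.0698) or iHepSC-P20 (adjusted p = 0.0507).

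The feedback inhibitors Socs3 and Tnfaip3 stood higher in iHepSC and in pHep. Socs3, which is induced by STAT3 and blocks the interleukin-6 receptor, was read from 10.04 to 10.40 in MEF, at 11.93 and 11.63 in iHepSC and at 12.34 in pHep. Neither iHepSC array overlapped MEF, and the rise was 1.54 ± 0.16 (limma adjusted p = 0.000759), beside 2.10 ± 0.21 in pHep (limma adjusted p = 0.000821). Tnfaip3, the NF-kB inhibitor A20, rose by 2.52 ± 0.28 in iHepSC (limma adjusted p = 0.000976) and by 2.77 ± 0.36 in pHep (limma adjusted p = 0.00249). Over the whole signalling list of 24, 6 genes were higher and 5 lower in pHep than in MEF (14.8% and 15.5% of all genes). The rises numbered 13 without MEF replicate 1, and the falls numbered 3 when MEF replicate 2, 3 or 4 or either iHepSC array was left out.

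**Figure D4:**
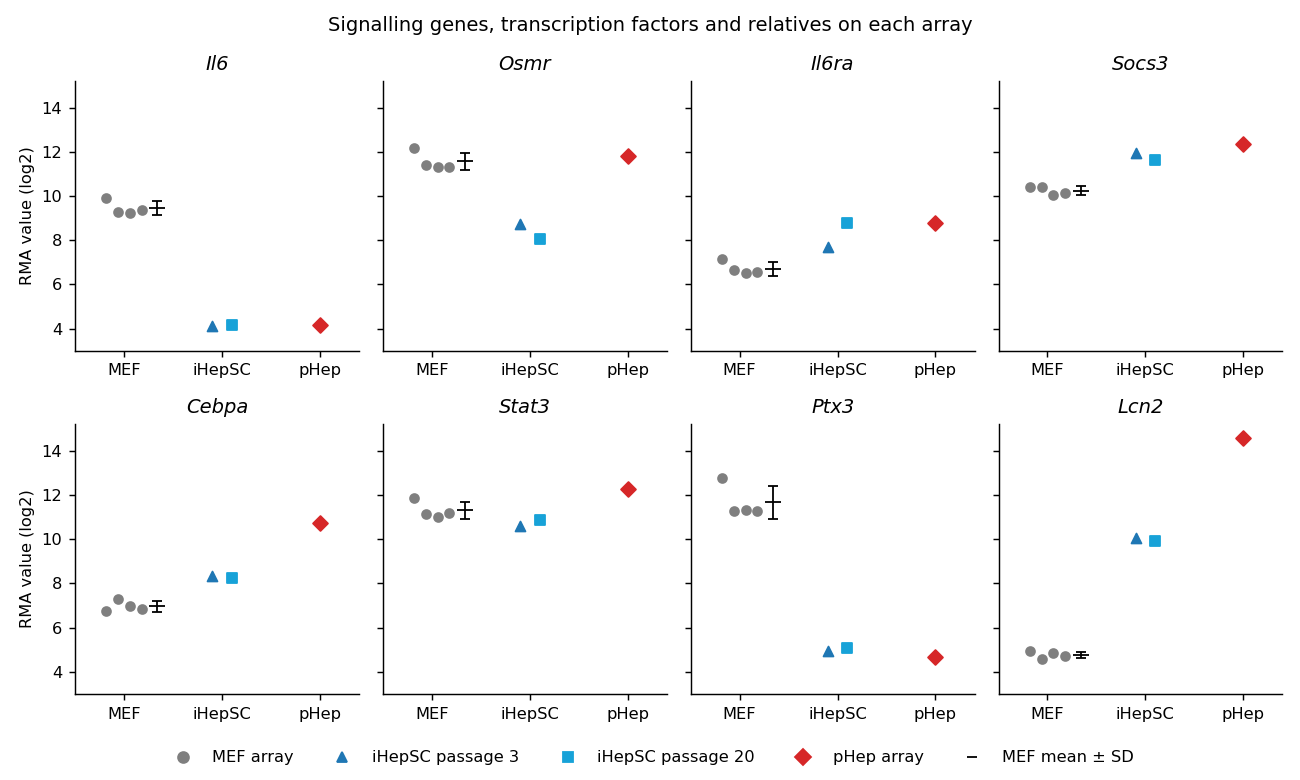
RMA values (log2) of 4 signalling genes, 2 transcription factors and 2 relatives of the members on each array, by group, with symbols and the MEF mean ± SD as given in the key. Il6 and Ptx3 are high in MEF alone, and Lcn2 rises from MEF through iHepSC to pHep.

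Of 13 transcription factors of the response measured, 6 were higher in iHepSC and 8 in pHep than in MEF (18.2% and 14.8% of all genes), with median differences of 0.80 and 1.60. In iHepSC 0 were lower by limma (13.4% of all genes), 1 at an unadjusted p under 0.05, 0 by the methods' t-test and 3 by limma without MEF replicate 1. The count of rises in iHepSC was 10 without MEF replicate 1 and 3 without iHepSC replicate 1, and that in pHep was 4 when MEF replicate 2, 3 or 4 or either iHepSC array was left out. Cebpa, the C/EBP factor of mature hepatocytes, was read from 6.74 to 7.28 in MEF, at 8.35 and 8.25 in iHepSC and at 10.73 in pHep, in the order that Saa1 and Orm1 had. Its rise in iHepSC was 1.35 ± 0.17 (limma adjusted p = 0.00163), and in pHep 3.77 ± 0.22 (limma adjusted p = 8.28e-05). Cebpb and Cebpd, the inducible C/EBP factors, differed between iHepSC and MEF by 1.44 (limma adjusted p = 0.0845) and -0.92 (limma adjusted p = 0.0859). Without MEF replicate 1 both passed the test, at 1.86 (adjusted p = 3.03e-06) and -0.68 (adjusted p = 0.00616). Cebpb also passed with Gapdh centring (1.83, adjusted p = 0.0462), and Cebpd with its probe sets averaged (-0.72, adjusted p = 0.0125) or quantile normalization repeated (-1.03, adjusted p = 0.0456). Stat3 differed by -0.59 (limma adjusted p = 0.152), which without MEF replicate 1 was -0.39 (adjusted p = 0.019).

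Hnf4a, 1 of the 2 factors given to the cells, was higher by 4.52 ± 0.10 in iHepSC (limma adjusted p = 1.66e-06) and by 5.96 ± 0.13 in pHep (limma adjusted p = 4.57e-06). With probe sets of the cross-binding suffixes left out, Hnf4a was read by another of its 4 probe sets. There iHepSC differed from MEF by 0.13 (limma adjusted p = 0.454). The difference of iHepSC from pHep was -1.44 at the first set and -0.60 there (limma adjusted p = 0.0566). Whether the probe sets read the introduced or the cells' own transcript was not tested on these arrays. From qPCR specific to the introduced genes, the paper reports that introduced Hnf4a mRNA was silenced at early and late passage alike. Foxa2, a pioneer factor of endoderm, was higher by 6.24 ± 0.30 in iHepSC (limma adjusted p = 3.14e-05) and by 5.34 ± 0.39 in pHep (limma adjusted p = 0.000231).

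Among 10 relatives of the members by family, 4 were higher and 1 lower in iHepSC than in MEF (18.2% and 13.4% of all genes). In pHep 6 were higher and 1 lower (14.8% and 15.5%). Without MEF replicate 1 the falls numbered 2 and 3. The 1 that fell was Ptx3, the long pentraxin made by fibroblasts and myeloid cells, read at 12.77, 11.29, 11.30 and 11.28 in MEF, 4.93 and 5.06 in iHepSC and 4.68 in pHep. MEF lay above all other arrays, and in pHep the difference of Ptx3 from MEF was opposite in sign to those of Crp and Apcs. Ptx3 differed by -6.66 ± 0.46 in iHepSC (limma adjusted p = 0.000129) and -6.98 ± 0.59 in pHep (limma adjusted p = 0.000439). Orm3, which lies between Orm1 and Orm2, was read from 4.87 to 5.27 in MEF, at 5.64 and 5.44 in iHepSC and at 6.48 in pHep. Its difference of 0.44 ± 0.14 in iHepSC was not past the test (limma adjusted p = 0.0643), though it was with arrays centred on their median (0.47, adjusted p = 0.0463), with quantile normalization repeated (0.47, adjusted p = 0.0491) or without MEF replicate 1 (0.36, adjusted p = 0.02).

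Lcn2, the lipocalin that captures bacterial siderophores, was read from 4.58 to 4.92 in MEF, at 10.04 and 9.90 in iHepSC and at 14.59 in pHep. The 3 groups did not overlap, and the rise in iHepSC was 5.21 ± 0.13 (36.9-fold; limma adjusted p = 2.12e-06). Ambp, the precursor of alpha-1-microglobulin and bikunin, rose by 3.82 ± 0.28 (limma adjusted p = 0.000171), and Rbp4, the plasma retinol carrier, by 2.56 ± 0.26 (limma adjusted p = 0.000759).

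The other plasma proteins that rise in the acute phase were also mostly higher. Of 25 measured, 19 were higher and 1 lower in iHepSC than in MEF (18.2% and 13.4% of all genes), with a median difference of 2.54. In pHep 24 were higher (14.8% of all genes), with a median of 7.76. Without MEF replicate 1 there were 2 lower in iHepSC. Hpx, the haem carrier hemopexin, was higher in iHepSC by 7.23 ± 0.20 (limma adjusted p = 3.09e-06), Cp, the copper carrier ceruloplasmin, by 7.21 ± 0.54 (limma adjusted p = 0.000183), and Lbp, which presents lipopolysaccharide to CD14, by 6.87 ± 0.18 (limma adjusted p = 2.57e-06). Against pHep, 3 of the 25 were higher in iHepSC and 19 lower (9.26% and 7.89% of all genes). Lbp was among the 3, by 1.44 (limma adjusted p = 0.0119). With the replicate number as a block the 3 became 0. Fgb, the fibrinogen beta chain, rose by 2.54 ± 0.15 in iHepSC (limma adjusted p = 7.67e-05) and by 9.95 ± 0.20 in pHep (limma adjusted p = 4.21e-06). Of 12 plasma proteins that fall in the acute phase, such as albumin, 6 were higher and 1 lower in iHepSC than in MEF (18.2% and 13.4% of all genes). In pHep 10 were higher than in MEF (14.8% of all genes). The median differences from MEF were 1.76 and 4.54, and the class was not tested as a whole.

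Glucocorticoids add to the induction of many acute phase genes, and dexamethasone was in the HEP medium of iHepSC, which the labels but not the methods give for pHep too. Of 13 glucocorticoid response genes, 7 were higher and 1 lower in iHepSC than in MEF (18.2% and 13.4% of all genes). In pHep 11 were higher and 1 lower (14.8% and 15.5%). In iHepSC the 7 became 4 without iHepSC-P20, and the 1 became 2 without MEF replicate 1 or iHepSC-P3. Fkbp5, an inducible co-chaperone of the glucocorticoid receptor, was read from 8.37 to 9.32 in MEF, at 13.25 and 13.46 in iHepSC and at 12.28 in pHep. It rose by 4.31 ± 0.29 in iHepSC (limma adjusted p = 0.000118). Tat, the hepatic tyrosine aminotransferase, was read from 6.06 to 6.60 in MEF, at 6.16 and 6.43 in iHepSC and at 11.30 in pHep. The part of the medium in the members' values was not tested.

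Of 16 receptors and partners of serum amyloid A and pentraxins, 5 were higher and 1 lower in iHepSC than in MEF (18.2% and 13.4% of all genes), with 3 lower without MEF replicate 1. In pHep 7 were higher and 3 lower (14.8% and 15.5% of all genes). Cd36, a scavenger receptor that takes up serum amyloid A, rose by 4.70 ± 0.19 in iHepSC (limma adjusted p = 1.44e-05) and by 5.10 ± 0.25 in pHep (limma adjusted p = 4.32e-05). Tlr2, a receptor that senses bacterial lipoproteins and responds to serum amyloid A, was read from 6.61 to 7.13 in MEF, at 9.37 and 8.92 in iHepSC and at 7.50 in pHep. It was, like Saa3, highest in iHepSC, by 2.34 ± 0.20 over MEF (limma adjusted p = 0.000361).

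Because Saa3 is known from macrophages, their markers were set beside it. Over 12 Kupffer cell and macrophage markers the mean level ran from 6.60 to 7.64 in MEF, was 5.88 and 5.85 in iHepSC and 9.50 in pHep. The list mean was lowest in iHepSC, though not every marker was. None of the 12 was higher in iHepSC than in MEF (0 by limma, 0 at an unadjusted p under 0.05 and 0 by the methods' t-test), beside 18.2% of all genes. In iHepSC 3 were lower (13.4% of all genes), 8 without MEF replicate 1 and 1 without either iHepSC array. In pHep 9 were higher than in MEF (14.8% of all genes), and 5 without MEF replicate 2 or 4 or either iHepSC array. Vsig4, a complement receptor of Kupffer cells, was read from 4.96 to 5.51 in MEF, at 5.37 and 5.64 in iHepSC and at 11.57 in pHep. C1qb, a complement chain made by macrophages, was read from 5.52 to 7.31 in MEF, at 4.81 and 4.70 in iHepSC and at 11.05 in pHep. Vsig4 and C1qb had the largest rises in pHep on the list, and 3 of the 12 did not pass the test there. Clec4f was among those 3 and was lower in pHep, at 6.08 against 6.46 to 6.75 in MEF (-0.53, limma adjusted p = 0.0558). The part of these cells in the iHepSC and pHep values of Saa3 and the other members was not tested. The adipocyte markers, also a class of Saa3-making cells, had a mean level from 6.21 to 6.56 in MEF, 6.45 and 6.32 in iHepSC and 5.90 in pHep. Of the 6 measured, 1 was higher and 1 lower in iHepSC than in MEF (18.2% and 13.4% of all genes). Both counts were 2 without MEF replicate 1. Cidec rose by 1.14 (limma adjusted p = 0.000607), and Fabp4 differed by -2.28 (limma adjusted p = 0.00178). Means of the neutrophil markers lay from 5.32 to 5.40 in MEF, at 5.54 and 5.48 in iHepSC and at 5.15 in pHep, and those of the liver endothelial markers from 5.98 to 6.23, at 6.79 and 6.81 and at 5.84.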

How the data were processed

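RNA of MEF, iHepSC and pHep was measured on Affymetrix mouse arrays, and the authors deposited log2 values of 45101 probe sets made by Robust Multiarray Analysis (RMA); the RMA version is not given in the sources used here. The wtHepSC arrays of the study were not used here. Precision is limited by how few arrays there are, and no detection calls were used. By the platform annotation 34945 probe sets had 1 gene symbol, 932 several and 9160 none, and 64 were controls. Each of 18193 genes was read by whichever of its single-symbol probe sets had the highest mean on the 7 arrays. The tests were made in limma 3.58.1 (R 4.3.3) by lmFit and eBayes on 3 group means with 4 residual degrees of freedom. Adjusted p-values (Benjamini-Hochberg, all genes) under 0.05 were called. The fit was tested on simulated data.

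The members, gene lists and tests were chosen with earlier results of these data known. Named beside the members were, in each list, up to 3 genes with the largest difference past the test in iHepSC and up to 2 in pHep, any relative, signalling gene or transcription factor, and the 3 genes most like each member. Clec4f was named besides, for its lower value in pHep. Promoter windows are RefSeq's (GRCm38.p6). Alternatives covered probe sets, scaling, variance model, low values, the replicate block, the methods' t-test and each array left out. Python 3.11.15 with numpy 2.4.6, pandas 2.3.3 and matplotlib 3.10.9 made the tables and plots.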

Additional observations from a re-analysis of the deposited data

Results flagged for a closer look

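In the 4 MEF arrays, a value standing apart from the other 3 was sought with Dixon's ratio of its gap to the whole range, read against its critical value, for 59 probe sets and genes named above. Clec4f, the cytokine ligands other than Il6 and the adipocyte markers Cidec and Fabp4 were not among them. No member stood apart, and 6 other genes did, each through MEF replicate 1; chance alone gives about 1 in 20. Ptx3 was at 12.77 in that array and from 11.28 to 11.30 in the others (ratio 0.983), Il6st at 12.09 against 11.14 to 11.19 (0.956), Cebpb at 12.04 against 10.27 to 10.43 (0.913), Osmr at 12.16 against 11.33 to 11.41 (0.905), Cebpd at 11.42 against 10.37 to 10.49 (0.882) and Tnfaip3, the only one lower there, at 7.51 against 8.31 to 8.44 (0.859). The cause was not tested.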

How the results depend on the processing

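Of 410 differences of the 8 members recomputed under the alternatives, 399 kept their side of the threshold, 7 gained and 4 lost the call, and none that was called changed sign. Among uncalled values, Saa4 changed sign, from -0.12 to 0.37 in iHepSC against pHep with Gapdh centring and between -0.08 and 0.39 in iHepSC against MEF. The members higher in iHepSC than in MEF numbered 6 in place of 3 with each array centred on Gapdh, which shifts all genes by 0.39, -0.10 and 0.49 in the comparisons iHepSC with MEF, pHep with MEF and iHepSC with pHep and moves the share of calls that are higher over all genes from 57.5% to 79.1%, 48.9% to 42.1% and 54.0% to 83.0%. With the replicate number as a block, the members higher in iHepSC than in pHep numbered 0 in place of 1 (Saa3 2.29, adjusted p = 0.0648), and Saa2 lost its calls in pHep against MEF (2.32, adjusted p = 0.126) and in iHepSC against pHep (-2.17, adjusted p = 0.173). Whether the numbers pair the samples cannot be told. Deviations of same-numbered MEF and iHepSC arrays correlated at -0.222 and -0.207. With 2 iHepSC arrays the deviations of each mirror those of the other, so these values cannot decide it. With MEF replicates 2 to 4 averaged as 1 sample, no member call changed. Saa1 differed by 0.88 between the passages with both probe sets averaged, and Saa3 by 0.51 and Saa4 by 0.37 with Gapdh centring. Il6st in pHep against MEF turned from 0.14 to -0.74 (adjusted p = 0.0029) with its probe sets averaged. List counts moved more: for example, 2 signalling genes rose in iHepSC with the block and 10 without MEF replicate 1. The cause was not tested. Since no detection calls were used, whether the low MEF values of Orm1, Orm2 and Crp stand above background was not tested.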
